A study of Mus musculus with 11 samples.

Results

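The regions described here were open chromatin in every Prdm3/16KO library and in no Control library. Each of the 11 peak lists was shortened to the 72935 peaks that ranked highest by −log10 p, and overlapping peaks on chromosomes 1 to 19 were merged over all lists, which gave 82678 merged regions. Of these, 2933 (3.55%) had a peak in all 5 Prdm3/16KO lists and in none of the 6 Control lists. They are called knockout-only regions below. The choice used the presence of peaks in both genotypes, so the contrast between genotypes at these regions is a description and no test of it is given.

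The assay was ATAC-seq, which uses a transposase to tag accessible DNA, on lungs of mouse fetuses at E17.5. In the 5 Prdm3/16KO samples, floxed alleles of Prdm16 and of Prdm3 had been deleted with ShhCre, a Cre inserted at the Shh gene that is active in the endoderm-derived epithelium of the lung. The Cre allele came from Prdm3fl/fl Prdm16fl/wt ShhCre+ males that were bred to Prdm3fl/fl Prdm16fl/fl females. The 6 Control samples are labelled with that word alone, so which floxed alleles they carried, and whether they had Cre, is not given in the sources used here. In both groups the cells had been positively selected with microbeads against EpCAM, an adhesion protein of the epithelial cell surface. Prdm3 is listed as Mecom in the gene table. Whether each library came from a separate fetus is not stated, so any p-value measures the spread between these libraries, which may be technical.

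PRDM3 and PRDM16 are zinc finger proteins that bind DNA and recruit chromatin regulators, including repressive complexes and histone methyltransferases. Open chromatin away from gene starts often marks enhancers, whose target gene is not always the nearest one. At E17.5 the distal lung epithelium is forming the surfactant-producing type 2 cells and the flat type 1 cells of the future alveoli, and NKX2-1, named in the series title, is a homeobox factor needed for both. A bulk library cannot tell a site that opened in all cells from one that was open in a larger number of cells.

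Sequences are shown for the promoters that the knockout-only regions covered, because a promoter window ties a region to 1 gene. RefSeq promoter windows of build GRCm38.p6 (the assembly of mm10) were available for chromosomes 1 to 19 without 18. In total 43 knockout-only regions overlapped 46 such windows of 43 genes, 18 protein-coding and 25 non-coding or other. The 250 bases before the start are printed for the 5 protein-coding genes with the strongest region that overlapped at least 100 bp of the window. All 5 are on the strand of the gene, 5′ to 3′. Capitals mark matches, on either strand, to the motif letters given after the sequences.
Gkn2, chr6:87373115-87373364, plus strand: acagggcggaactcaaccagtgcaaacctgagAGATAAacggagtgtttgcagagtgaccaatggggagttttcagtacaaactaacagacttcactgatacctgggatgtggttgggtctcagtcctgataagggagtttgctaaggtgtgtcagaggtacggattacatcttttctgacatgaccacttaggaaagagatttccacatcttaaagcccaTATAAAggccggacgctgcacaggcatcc
Lce6a, chr3:92621661-92621910, minus strand: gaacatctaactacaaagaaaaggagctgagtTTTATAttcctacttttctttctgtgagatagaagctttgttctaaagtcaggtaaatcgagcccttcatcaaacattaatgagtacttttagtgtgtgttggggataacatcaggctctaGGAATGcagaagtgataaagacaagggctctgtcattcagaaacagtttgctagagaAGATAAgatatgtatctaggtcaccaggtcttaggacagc
Tiam1, chr16:89974700-89974949, minus strand: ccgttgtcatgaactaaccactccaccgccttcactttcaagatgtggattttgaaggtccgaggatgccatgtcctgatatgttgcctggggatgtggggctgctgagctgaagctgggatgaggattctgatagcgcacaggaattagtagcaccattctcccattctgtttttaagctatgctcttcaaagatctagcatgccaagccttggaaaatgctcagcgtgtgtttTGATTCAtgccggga
Glp2r, chr11:67771154-67771403, minus strand: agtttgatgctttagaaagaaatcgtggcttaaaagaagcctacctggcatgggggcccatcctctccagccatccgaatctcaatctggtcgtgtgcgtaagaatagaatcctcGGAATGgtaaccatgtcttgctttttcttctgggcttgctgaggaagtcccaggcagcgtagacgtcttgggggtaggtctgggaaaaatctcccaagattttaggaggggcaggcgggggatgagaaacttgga
Dcaf4, chr12:83525799-83526048, plus strand: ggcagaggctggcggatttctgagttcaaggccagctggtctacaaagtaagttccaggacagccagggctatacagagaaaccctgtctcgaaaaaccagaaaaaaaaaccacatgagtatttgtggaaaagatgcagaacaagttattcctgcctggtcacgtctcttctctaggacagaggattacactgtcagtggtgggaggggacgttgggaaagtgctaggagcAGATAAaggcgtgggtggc

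The Gkn2 promoter held a TATA box (TATAAA) at bases 222 to 227, beginning 29 bases before the start, and a GATA match (AGATAA) at bases 33 to 38. Gkn2 encodes gastrokine 2, a secreted protein of the stomach lining. Lce6a, a late cornified envelope gene of the epidermis, held a GATA match at bases 211 to 216, a TEAD match (GGAATG) at bases 154 to 159 and a reverse TATAAA at bases 33 to 38. The promoter of Tiam1, which encodes an activator of the GTPase Rac, held 1 match to TGANTCA, the letters used for AP-1, at bases 236 to 242. N stands for any base and was T here, so the match does not establish an AP-1 site. Because the letters are a palindrome, it matched on both strands. Glp2r, the receptor for glucagon-like peptide 2, held a TEAD match at bases 116 to 121, and Dcaf4, a partner of the DDB1-CUL4 ubiquitin ligase, a GATA match at bases 232 to 237.

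Across the 46 windows, the upstream 250 bases held AGATAA in 11 (23.9%), against 9.94% of all 31396 windows of the table. GGAATG was in 11 (23.9%) against 12.5%, and TGANTCA in 7 (15.2%) against 6.77%. CACTNNAG, a core of the NKX2-1 site, was in 10 (21.7%) against 13.0%. The ETS letters CCGGAAG were in 1 window (2.17%) against 7.01%, and the C/EBP letters TTGCNNAA in 2 (4.35%) against 9.66%. TGTTTAC, for forkhead factors, was in 2 (4.35%) against 3.21%, and TATAAA in 6 (13.0%) against 12.4%. Shares resting on so few windows are uncertain. Both strands were searched, overlapping matches were allowed, and no test was made of these shares. The median GC content was 47.2% in the covered windows and 52.4% in all windows. These 46 windows lie at 43 of the 2933 knockout-only regions and say nothing of the sequence of the distal ones, which was not analysed here.

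A first question was whether the regions recur in a library that took no part in their choice. Each library was left out in turn, regions were chosen by the same rule from the other 10, and a peak was looked for in the one left out. With a Prdm3/16KO library left out, it had a peak at 92.6%, 92.7%, 92.0%, 93.9% and 81.4% of the regions for replicates 1 to 5. The mean was 90.6 ± 5.16% (SD, n = 5). With a Control library left out, it had a peak at 6.59%, 5.42%, 2.04%, 3.14%, 1.18% and 3.90% for replicates 1 to 6, and the mean was 3.71 ± 2.04% (SD, n = 6). The 2 groups of values were far apart, and replicate 5 was the lowest of the Prdm3/16KO libraries. The share of all merged regions with a peak in a library ranged from 53.7% to 63.2% over Prdm3/16KO and from 56.4% to 67.4% over Control libraries. These shares are no baseline for the held-out values. The held-out regions were already chosen for a peak in every other Prdm3/16KO library and in no other Control library. Much of their recurrence may follow from that choice, and this was not tested. Between 2968 and 3611 regions were chosen each time, and the Wilson 95% interval, which covers counting error only, was 80.1% to 82.7% for Prdm3/16KO replicate 5 and 5.78% to 7.51% for Control replicate 1.

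**Figure D1:**
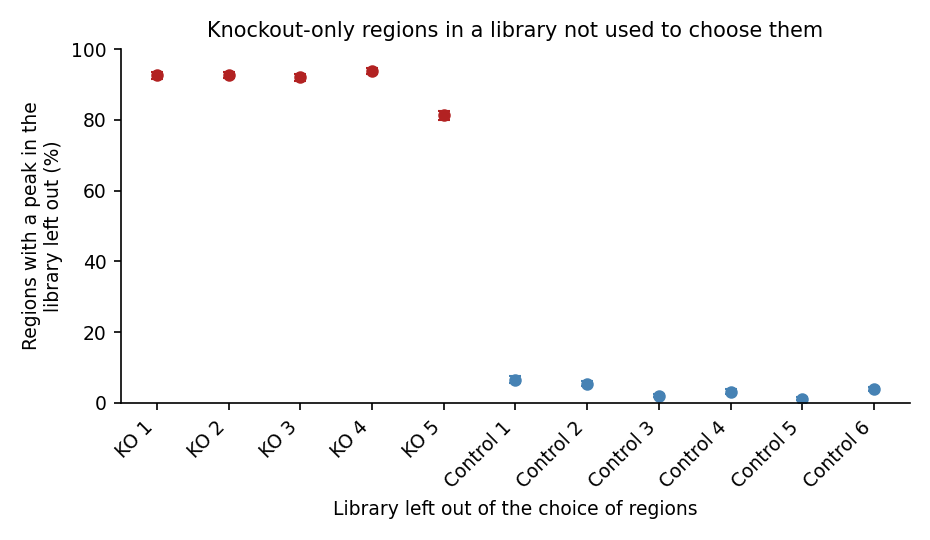
Share of regions, in percent, that had a peak in the library left out, when regions were chosen from the other 10 libraries as present in every remaining Prdm3/16KO (KO) and no remaining Control library. Points are libraries and bars are Wilson 95% intervals; the 5 Prdm3/16KO libraries lie between 81.4% and 93.9% and the 6 Control libraries between 1.18% and 6.59%.

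Knockout-only regions were of middle strength. Strength is given as a rank score. The top peak of each library gets 1, the weakest one in use gets a value near 0, and a library without a peak gets 0. The score of a region is that of its strongest peak. Median scores over the 2933 regions were 0.533, 0.560, 0.547, 0.562 and 0.550 in Prdm3/16KO replicates 1 to 5. The mean over the 5 libraries had a median of 0.538 over regions, with quartiles of 0.423 and 0.671 and a range of 0.151 to 0.985. It was at least 0.9 at 50 regions, at least 0.75 at 401 (13.7%) and below 0.25 at 44. For the 28337 regions open in all 11 libraries the median was 0.761 in Prdm3/16KO libraries and 0.768 in Control libraries. The median fold enrichment of the strongest peak over background was 10.7 to 12.6 at knockout-only regions and 12.6 to 14.1 at regions open in all 11, both in Prdm3/16KO libraries. Ranks recurred among libraries. Pearson's r between 2 Prdm3/16KO libraries over the 2933 regions was 0.749 to 0.807, given as a description because regions are not independent replicates.

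The opposite set, 2162 regions with a peak in every Control and in no Prdm3/16KO library, had lower rank scores in its own libraries. Other measures overlapped. Median fold enrichment per library was 10.5 to 12.2 at control-only regions in Control libraries. At knockout-only regions in Prdm3/16KO libraries it was 10.7 to 12.6. The median −log10 p was 43.0 to 80.0 and 42.7 to 62.4 in the same order. The median score of control-only regions was 0.423 in Control libraries, with 37 regions (1.71%) at 0.75 or more and 1 at 0.9 or more. The sets differ in the number of libraries that must hold a peak, 5 for knockout-only regions and 6 for control-only regions, and no test of this difference was made. Knockout-only regions had a median width of 687 bp (278 to 1580 bp), control-only regions 691 bp and regions open in all 11 libraries 940 bp. In all, knockout-only regions covered 2.08 Mb. More than 1 summit was present in 15.2% to 26.3% of knockout-only regions per library, against 39.4% to 50.3% of regions open in all 11 in the same libraries.

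**Figure D2:**
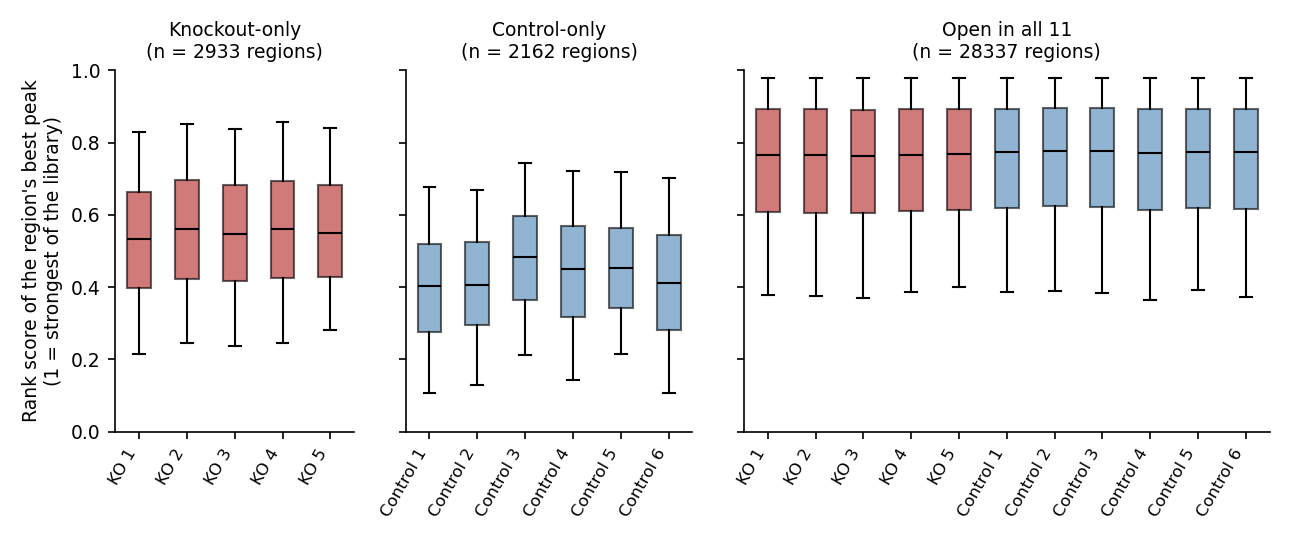
Rank score of each region's strongest peak by library (vertical axis, no unit, 1 is the strongest peak of a library) for knockout-only regions in the 5 Prdm3/16KO (KO) libraries, for control-only regions in the 6 Control libraries and for regions open in all 11. Boxes span the quartiles with the median as a line and whiskers reach the 5th and 95th percentiles of regions; medians of knockout-only regions lie between 0.533 and 0.562, below those of regions open in all 11 and above those of control-only regions.

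The borders of the rule are set by single libraries. Just outside it were 678 regions with a peak in all 5 Prdm3/16KO and in 1 Control library, and the median score of that single Control peak was 0.103. The Control library concerned was replicate 1 in 206, replicate 2 in 168, replicate 3 in 61, replicate 4 in 91, replicate 5 in 34 and replicate 6 in 118. Another 1577 regions had a peak in 4 Prdm3/16KO and no Control library. The library without a peak was Prdm3/16KO replicate 5 in 671 of them and another replicate in 189 to 254 each. Among regions just inside, the lowest single score in a Prdm3/16KO library was 0.0102 at a region 17910 bp from Prox1, 0.0257 inside Fndc3b and 0.0299 inside Auts2. Among those just outside, the only Control peak scored 1.37e-05 at a region near Sulf1, 0.000315 near Ptk2 and 0.000823 inside Ak5, where the Prdm3/16KO mean was 0.878 ± 0.0256 (SD, n = 5).

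"No Control peak" refers to the cut lists. The lists held 72935 to 85704 peaks in Prdm3/16KO libraries and 79525 to 112297 in Control libraries as deposited. The −log10 p of the last peak used was 14.0, 11.9, 10.7, 11.99 and 2.00 in Prdm3/16KO replicates 1 to 5, and 27.5, 22.6, 10.4, 28.6, 6.59 and 35.6 in Control replicates 1 to 6. The cut was thus stricter in −log10 p for most Control libraries, and some Control peaks below it exceeded Prdm3/16KO peaks above it. In the full lists, 426 knockout-only regions (14.5%) had a peak in 1 or more Control libraries, namely 181, 85, 0, 91, 1 and 174 regions in replicates 1 to 6. The other 2507 had none in any Control list. Of the 426, 329 had such a peak in 1 Control library, 89 in 2, 7 in 3 and 1 in 4. Prdm3/16KO libraries had a peak in their full lists at 3 of the 2162 control-only regions. The median score in Prdm3/16KO libraries was 0.552 at the 426 regions and 0.534 at the 2507.

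The 10 strongest regions were close to the top of every Prdm3/16KO list. At the first, 16393 bp from Cttnbp2 (chr6:18349193-18350078), scores were 0.983, 0.990, 0.987, 0.985 and 0.981 in Prdm3/16KO replicates 1 to 5, and no Control list, cut or full, had a peak. Its fold enrichments were 22.3, 25.1, 23.8, 23.7 and 22.5. All 5 libraries thus placed it among their strongest peaks. Cttnbp2 encodes a cortactin-binding protein of dendritic spines. The region inside Slit2 (chr5:48184457-48185254), which encodes the secreted ligand of Robo receptors in axon guidance, scored 0.965, 0.984, 0.958, 0.971 and 0.980, again with no peak in any full Control list. Near S1pr1, a receptor for sphingosine-1-phosphate, the region at chr3:115763043-115764007 scored 0.962, 0.937, 0.948, 0.965 and 0.933 and lay 47988 bp from the gene.

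The region 9304 bp from Nrp2 (chr1:62827996-62828557), a co-receptor for semaphorins and VEGF, scored 0.948, 0.963, 0.927, 0.964 and 0.946. Inside Intu, a planar polarity effector needed for cilia and hedgehog signalling, the mean score was 0.957 ± 0.0170 (SD, n = 5), and 31371 bp from Cers6, a ceramide synthase, it was 0.956 ± 0.0108. Regions farther from their nearest gene were as strong. Spock3, which encodes a testican proteoglycan, was 397674 bp from a region of mean score 0.973 ± 0.0134. Arl4a, a small GTPase of the ARF family, was 356545 bp from a region at 0.966 ± 0.00758, and Tmem114 was 207440 bp from one at 0.950 ± 0.00989. The region 74394 bp from Pabpc6 had 0.960 ± 0.0163. In the full lists, 1 Control library had a weak peak at the Spock3 region and 1 at the Pabpc6 region, and the other 8 regions had none.

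**Figure D3:**
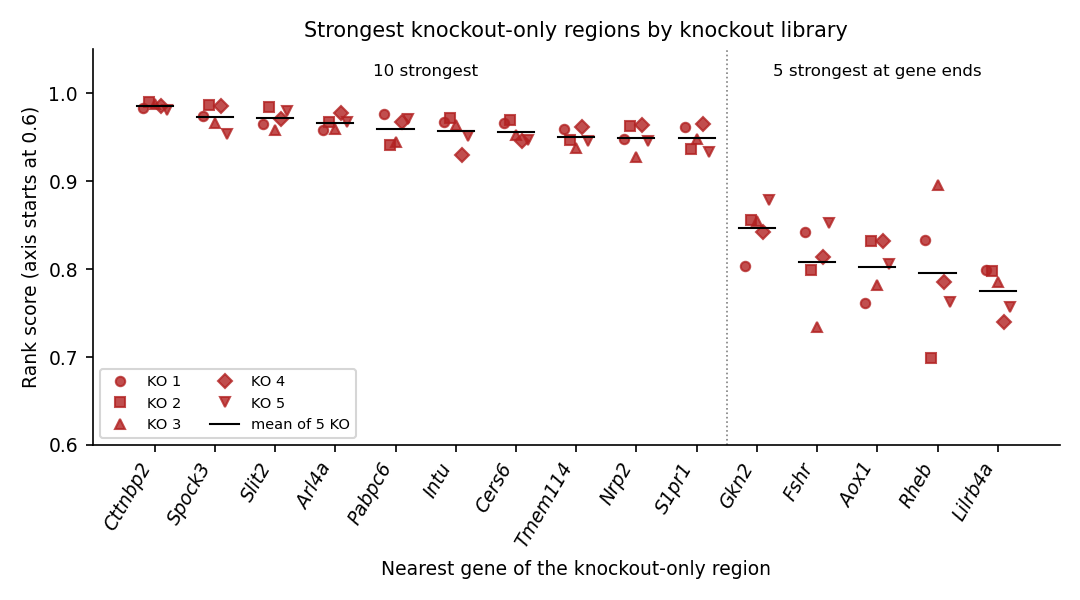
Rank score (vertical axis, from 0.6, no unit) of the 10 strongest knockout-only regions and of the 5 strongest at gene ends, by nearest gene, with 1 marker for each Prdm3/16KO (KO) library and a line at the mean of 5. No Control library had a peak at these regions in the cut lists; the 10 strongest have means from 0.949 to 0.985 and the 5 at gene ends from 0.776 to 0.847.

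At the weak end, the lowest means were 0.182 ± 0.0989 inside Scube2, 0.155 ± 0.0604 inside Mcph1 and 0.151 ± 0.0915 inside Cd5 (SD, n = 5). Fold enrichments at these 3 regions were between 5.80 and 9.36. Cd5, for example, scored 0.0637, 0.103, 0.147, 0.135 and 0.304. Over all knockout-only regions the median SD over the 5 libraries was 0.0737.

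Knockout-only regions lay away from gene ends. Only 82 (2.80%) were within 1 kb of the start or finish of a coding gene. Gene bodies held 1376 (46.9%), another 889 (30.3%) were intergenic but no more than 100 kb from a gene, and 586 (19.98%) were farther than that. Control-only regions were within 1 kb of a gene end in 4.72%, inside a body in 54.3%, between genes in 28.9% and farther than 100 kb in 12.1%. Regions open in all 11 libraries had 36.8%, 34.9%, 21.3% and 6.99% in the same order, and all merged regions 17.8%, 44.2%, 27.6% and 10.5%. The set thus held fewer gene ends and more gene-distant sites than either of the others, as a description of these lists. The table gives gene starts and ends without exons or strand for the whole set, so an end may be the start or the finish of a gene.

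Outside gene bodies the median distance to the nearest protein-coding gene was 60771 bp for knockout-only, 38973 bp for control-only and 29482 bp for regions open in all 11. More than 500 kb from any such gene were 108 knockout-only regions (3.68%), against 35 control-only regions (1.62%) and 224 open in all 11 (0.791%). The farthest was 1708475 bp from Slc10a2 with a mean score of 0.447 ± 0.0791 (SD, n = 5). A pair of regions 1562328 bp and 1479230 bp from Cdh8, a cadherin gene, scored 0.891 ± 0.0316 and 0.780 ± 0.0673. Of the 1497 knockout-only regions outside coding gene bodies, 258 (17.2%) overlapped the body of a long non-coding RNA gene. Distance went with little difference in strength: median scores were 0.500 at gene ends, 0.531 inside genes, 0.546 between genes and 0.549 beyond 100 kb.

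**Figure D4:**
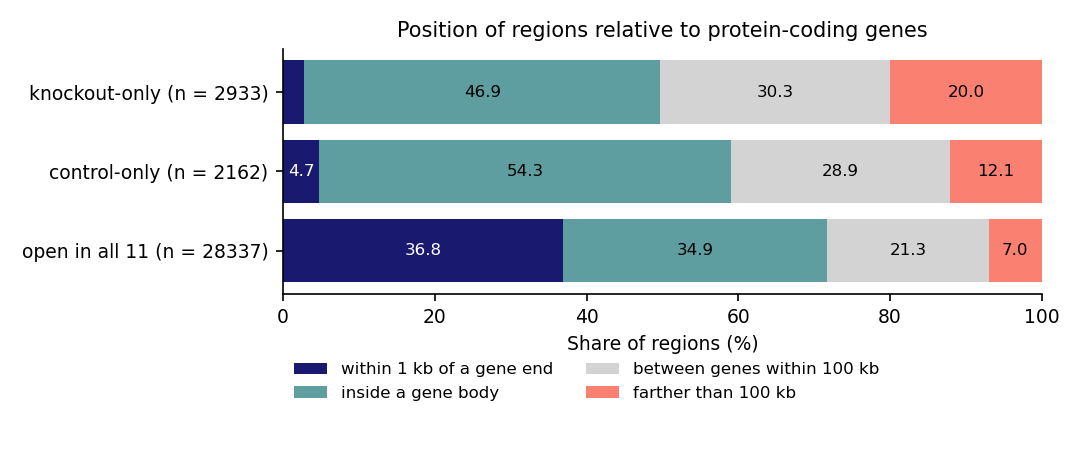
Share of regions, in percent, by position relative to protein-coding genes, for knockout-only, control-only and always open regions. Gene ends take 2.80% of knockout-only regions, 4.72% of control-only regions and 36.8% of regions open in all 11, and sites farther than 100 kb take 19.98%, 12.1% and 6.99%.

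Among the 82 regions at gene ends, the strongest was the one over the Gkn2 promoter printed above (chr6:87372834-87373524). Its scores were 0.803, 0.855, 0.855, 0.843 and 0.878 in Prdm3/16KO replicates 1 to 5, with fold enrichments of 15.6 to 20.4. All 5 scores were above 0.8, and no full Control list had a peak there. The next was at Fshr, the follicle-stimulating hormone receptor, with 0.843, 0.799, 0.734, 0.814 and 0.853. Regions at Aox1, an aldehyde oxidase, Rheb, a GTPase that activates mTORC1, and Lilrb4a, an inhibitory receptor of leukocytes, had means of 0.802 ± 0.0310, 0.795 ± 0.0742 and 0.776 ± 0.0262 (SD, n = 5). At Rheb the libraries differed most, from 0.699 in replicate 2 to 0.896 in replicate 3. The regions over the other printed promoters had means of 0.751 ± 0.0338 at Lce6a, 0.746 ± 0.0264 at Tiam1, 0.697 ± 0.0446 at Glp2r and 0.634 ± 0.0793 at Dcaf4.

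Every autosome held knockout-only regions, as 2.64% of merged regions on chromosome 19 and 2.68% on chromosome 17, up to 4.22% on chromosome 16 and 4.31% on chromosome 18. Most stood alone. With regions joined where the gap was at most 50 kb, 2288 were single, 244 groups had 2 regions, 41 had 3, 6 had 4 and 2 had 5. Clusters of 3 or more held 157 regions (5.35%), against 2.87% of control-only regions and 69.6% of the much more numerous regions open in all 11. A second region of its own kind lay within 50 kb for 22.0% of knockout-only and 16.7% of control-only regions. A region open in all 11 lay within 25 kb of 49.8% of knockout-only regions and of 61.7% of control-only regions. Only 6.04% of knockout-only regions had a control-only region within 25 kb. The sets differ in size, which changes how often neighbours occur, and these shares were not tested.

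The largest cluster had 5 regions over 61.1 kb on chromosome 1, between 165262 and 225410 bp from Nuf2, a kinetochore gene. Along the chromosome the mean scores were 0.789, 0.735, 0.758, 0.218 and 0.905, each ± 0.0286 to 0.0892 (SD, n = 5). Of the 6 merged regions in that span, these 5 were knockout-only and none was open in all 11, so nearly every open site of this stretch was found in Prdm3/16KO lists alone. None of the 5 had a peak in a full Control list. The second cluster, at App on chromosome 16, was different in surroundings. Its 5 knockout-only regions over 82.6 kb stood among 19 merged regions, of which 5 were open in all 11 and 1 was control-only. Their mean scores were 0.486, 0.754, 0.542, 0.386 and 0.471, and 4 lay inside the gene, which encodes the amyloid precursor protein.

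Clusters of 4 regions were found at Aff3 and Prickle1, among others. The first was inside Aff3, which encodes a protein of the super elongation complex family, with 0.348 to 0.681 over 48.1 kb. The second was 178580 to 236825 bp from Prickle1, a planar cell polarity gene, with 0.408 to 0.820 over 58.8 kb. In the full lists 2 Control libraries had a peak at the weakest region of the Prickle1 cluster, 1 at 1 region of the Aff3 cluster, and 1 and 2 at 2 regions of the App cluster.

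**Figure D5:**
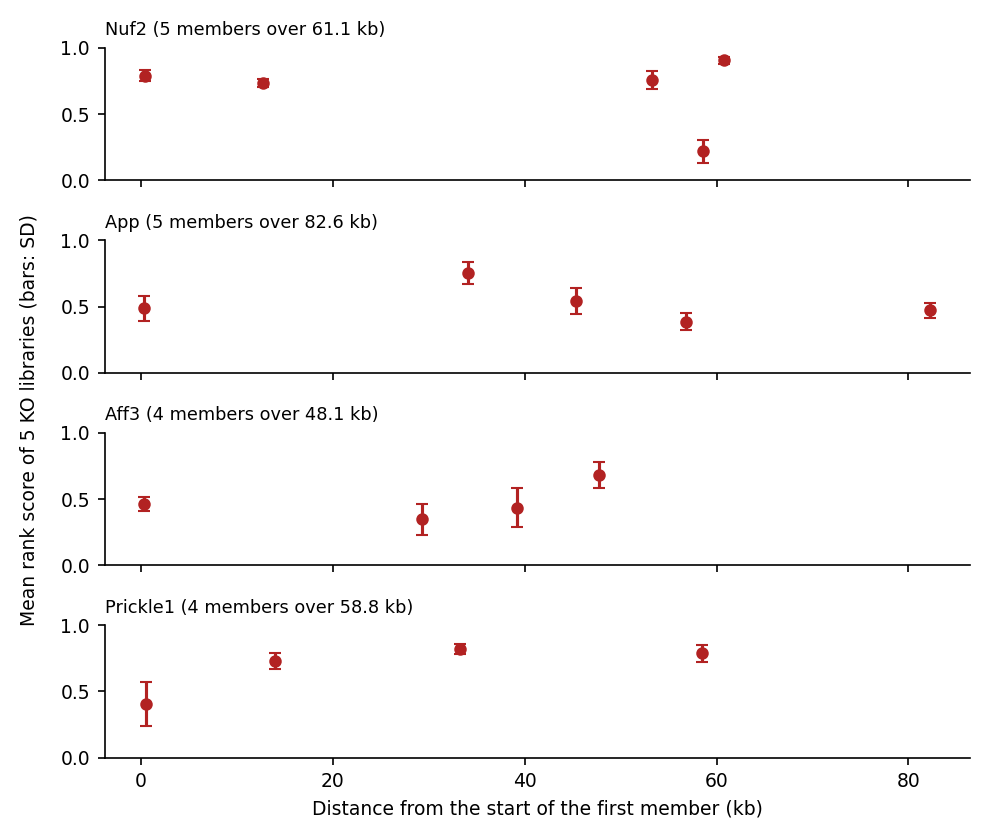
Mean rank score over the 5 Prdm3/16KO libraries (vertical axis, no unit, bars are SD) of each region in 4 of the largest clusters of knockout-only regions, against distance in kb from the start of the first. Strong and weak regions stand side by side, as in the Nuf2 cluster with means from 0.218 to 0.905.

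Regions were assigned to the nearest protein-coding gene within 100 kb. This gave 2347 knockout-only regions at 1817 genes, or 11.3% of the 16082 genes with any region, and 3.17% of all assigned regions. One knockout-only region was found at 1453 genes, 2 or more at 364, 3 or more at 117 and 5 or more at 13. The 10 genes with most such regions were 222.6 to 1612 kb long and had 16 to 54 regions of any kind. The median number of regions per gene was 9 for genes with a knockout-only region and 3 for all genes, so the share of a gene's regions is given beside each count.

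Ryr2, which encodes the cardiac calcium release channel, led with 8 of its 33 regions (24.2%), 7 of them inside the gene of 553.8 kb. Their mean scores ran from 0.270 to 0.773, and none of the other regions at Ryr2 was control-only. Nrg1, the ErbB ligand neuregulin 1, had 7 of 35 regions, all inside the gene, with scores of 0.265 to 0.843. Cdh13, an atypical cadherin without a membrane-spanning domain, had the highest share of these 10 genes, 5 of 16 regions (31.2%). Fhit, at a fragile site, had 6 of 54, App 6 of 33 and Auts2 6 of 47. Aff3 had 5 of 27, Snd1, a nuclease of RNA silencing complexes, 5 of 33, Nckap5 5 of 51 and Maml3, a Notch coactivator, 5 of 53. Control-only regions were also present at 4 of the 10 genes, with 3 at Nckap5, 2 at Fhit and 1 each at App and Auts2.

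The deleted genes were examined together with Nkx2-1 and Shh. Mecom (Prdm3) had 5 knockout-only regions of 54, with 12 open in all 11 and 1 control-only. The strongest, inside the gene at chr3:30221859-30222301, scored 0.577, 0.658, 0.640, 0.614 and 0.620 in Prdm3/16KO replicates 1 to 5. A second inside the gene had a mean of 0.570 ± 0.0690 (SD, n = 5), and the remaining 3 had 0.483, 0.352 and 0.253. Prdm16 had 0 of 29 regions, with 8 open in all 11. Nkx2-1 had 0 of 12 and Shh, the locus of the Cre, 0 of 10, with 3 open in all 11 at each. These peaks do not measure the deletion, because the labels do not place the deleted exons.

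The lists of lung epithelial genes were first counted. Of 22 alveolar type 2 genes with a region, 2 had one, and these were 2 of 139 regions (1.44%), against 3.17% over all genes. They were inside Acly, which makes cytosolic acetyl-CoA, at 0.698 ± 0.120 and inside Lpcat1, which remodels surfactant phosphatidylcholine, at 0.307 ± 0.0793 (SD, n = 5). Of 23 alveolar type 1 genes, 3 had one each, as 3 of 205 regions (1.46%): Emp2, Lmo7 and Hopx at 0.755, 0.432 and 0.338. Transcription factors of the lung epithelium had 15 of 535 regions (2.80%) at 11 of 34 genes, a share of regions close to that of all genes. The share of genes (32.4%) was above the 11.3% of all genes. It was not adjusted for the number of regions per gene, which had a median of 3 over all genes. Irx1, an Iroquois homeobox gene, had 2, the stronger at 0.802 ± 0.0361, and Tead1, Foxp1 and Nfib had 2 each with highest means of 0.615, 0.536 and 0.464. Gut and other endoderm genes had 3 of 115 regions (2.61%) at 2 of 27 genes, which were Prox1 with 2 and Alb with 1.

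Genes of airway and neuroendocrine cells had 5 of 89 regions (5.62%, against 3.17% over all genes), at 5 of 21 genes. A region inside Trp63, the factor of basal cells, scored 0.840 ± 0.0304 (SD, n = 5). Muc5b, an airway mucin, had one at 0.732, Resp18, of neuroendocrine granules, one at 0.721 and Scgb3a2, a secretoglobin, one at 0.577. Keratin and junction genes had 21 of 438 regions (4.79%) at 11 of 36 genes, including the 5 of Cdh13 and 3 each at Pard3 and Pard3b, which organise cell polarity. Magi2 had 2 knockout-only and 5 control-only regions of 51.

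Synaptic and neuronal adhesion genes had the highest share among the lists, 41 of 567 regions (7.23%) at 21 of 37 genes. Over all genes the share was 3.17%. The synaptic list also had 15 control-only regions (2.65%). Lsamp had 5 of 30 with a highest mean of 0.644, Cntnap2 4 of 22 with 0.760, Ntm 4 of 32 with 0.667 and Negr1 3 of 30 with 0.848, all of them cell adhesion molecules of neurons. Axon guidance genes had 33 of 614 regions (5.37%) at 18 of 44 genes, beside 12 control-only regions (1.95%). Ephb1, an ephrin receptor, Sema3c and Sema6d, which are semaphorins, and Unc5c, a netrin receptor, had 3 each, with highest means of 0.773, 0.751, 0.460 and 0.597. Channel genes had 19 of 419 regions (4.53%) at 15 of 39 genes, with 4 at Cacna2d3, a calcium channel subunit, and the strongest at Kcnq3, a potassium channel, at 0.892 ± 0.0275 (SD, n = 5). Many of these genes are long, and the lists were drawn up with earlier results of these data known, so the shares are not independent evidence. Of all genes with any region, 11.3% had a knockout-only region. The counts of genes in the lists were not adjusted for the number of regions per gene. Over all genes 2.57% of assigned regions were control-only. Control-only regions outnumbered knockout-only ones at alveolar type 2 genes (5 to 2) and lung epithelial transcription factors (19 to 15). The same held for BMP and TGF-beta (12 to 8), AP-1 and ATF (2 to 1), endothelial (2 to 0) and immune genes (1 to 0). In each other list knockout-only regions were the more numerous.

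Among signalling pathways, the share of regions that were knockout-only ran from 2.12% to 5.23%, against 3.17% over all genes. Of all genes with any region, 11.3% had a knockout-only region. The median gene had 3 regions, and the counts of pathway genes were not adjusted for the number of regions per gene. Hedgehog genes had 8 of 153 (5.23%) at 6 of 16 genes, with 2 each at Gli3 and Disp1, and 1 each at Intu and Gli2. Gli2 and Gli3 are the transcription factors of the pathway, and their highest means were 0.784 and 0.808. Receptors and enzymes of sphingosine, VEGF and lipid signalling had 9 of 193 (4.66%) at 5 of 23 genes, with 3 each at Cers6 and S1pr1. Notch genes had 10 of 221 (4.52%) at 6 of 22 genes, 5 of them at Maml3. A region 8587 bp from Hey2, a Notch target, scored 0.917 ± 0.0269 (SD, n = 5). Hippo genes had 8 of 204 (3.92%), with 3 at Amotl1, a partner of YAP.

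Wnt genes had 11 of 367 regions (3.00%, close to the 3.17% over all genes) at 10 of 41 genes. Of these, 2 were at Tcf7l2, a transcription factor of the pathway. The strongest, at 0.791 ± 0.0408 (SD, n = 5), was inside the receptor gene Ror1. BMP and TGF-beta genes had 8 of 352 (2.27%) at 5 of 36 genes, 3 of them at Bmp6 and 2 at the antagonist Fst. FGF genes had 4 of 189 (2.12%) at 3 of 21 genes. One of these was 49404 bp from Fgfr2, the epithelial receptor for FGF10 in lung branching, at 0.720 ± 0.0419, and one near its antagonist Spry2 was at 0.602. PRDM family genes had 6 of 184 (3.26%), including the 5 at Mecom. AP-1 and ATF genes had 1 of 103 (0.971%), 92842 bp from Jun.

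Lists of other cell types were counted as well, again beside 3.17% over all genes. Endothelial genes had 0 of 77 regions and immune genes 0 of 34. Mesenchymal genes had 5 of 137 (3.65%), 3 of them at Runx2, which drives bone formation, and neural and neural crest genes 3 of 76 (3.95%), at Elavl4 and Pax3. The labelled cell type was checked with peaks within 1 kb of the ends of marker genes. All 10 epithelial markers, Epcam, Cdh1 and Nkx2-1 among them, had a peak in every library, with summed scores of 7.16 to 7.63 in Prdm3/16KO and 7.24 to 7.92 in Control libraries. Of 10 endothelial markers, 3 had a peak in each Prdm3/16KO library and 4 to 5 in Control libraries, with summed scores of 1.498 to 2.08 and 1.90 to 2.83. Mesenchymal markers with a peak were 2 to 4 of 10 and 3 of 10, immune markers 2 to 3 and 2 to 4 of 10, neural markers 4 and 3 to 4 of 8, and erythroid markers 3 to 5 of 6 in both, each with Prdm3/16KO before Control libraries. Knockout-only regions, counted within 100 kb of a gene and not only at its ends, were present at 1 epithelial (Cdh1), 1 mesenchymal (Pdgfra) and 1 neural (Elavl4) marker. The Pdgfra region lay 11798 bp from the gene, and those of Elavl4 lay inside it, 44334 and 46224 bp from an end. The part of other cells in the knockout-only regions was not tested.

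Accessibility next to the knockout-only regions was compared at sites open in all 11 libraries, which are not knockout-only and can be tested on rank scores. The limma fit covered the 65887 merged regions found in 3 or more libraries, of which 20.7% were higher and 24.1% lower in Prdm3/16KO at a Benjamini-Hochberg adjusted p below 0.05. These include the knockout-only and control-only regions, whose direction was fixed by the rule, so their calls are no result. The background used below is therefore the set of regions open in all 11. Among the 28337 regions open in all 11, 15.6% were higher and 20.7% lower. Of 2297 such regions within 25 kb of a knockout-only region, 432 (18.8%) were higher and 558 (24.3%) lower. Both shares were about 3 to 4 percentage points above those of all regions open in all 11, and more neighbours were lower than higher. Gene ends had fewer calls, with 9.10% higher and 8.93% lower. Without the gene ends, the shares were 22.6% and 28.1% of 1709 neighbours, against 19.4% and 27.6% of 17898 regions. There the lower calls differed less from the background and the higher calls by about as much. With the lists as deposited, the split was 245 higher and 609 lower of 1931 neighbours, or 12.7% and 31.5%, against 9.05% and 28.7% of all regions open in all 11. With peaks ranked by fold enrichment, 14.3% of neighbours were higher and 19.2% lower, against 15.7% and 12.3% of all regions open in all 11.

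As a single value per library, the mean score of the 2297 neighbours minus that of all regions open in all 11 was -0.00702, -0.00753, -0.00818, -0.00594 and -0.00923 in Prdm3/16KO replicates 1 to 5. In Control replicates 1 to 6 it was -0.0104, -0.0116, -0.00757, -0.0105, -0.00744 and -0.0144. The groups overlapped. The difference was 0.00271, with p = 0.0563 in an exact permutation test over 462 splits (two-sided, smallest possible 0.00216). Without Prdm3/16KO replicate 4 the difference was -0.000473 (exact permutation p = 0.757), and without replicate 5 it was 0.00360 (exact permutation p = 0.00952). With peaks ranked by fold enrichment it was -0.0214 (exact permutation p = 0.00216). For the 986 neighbours within 10 kb the difference had the opposite sign, at -0.00978 (exact permutation p = 0.00216). The knockout-only regions that place these neighbours were themselves chosen by genotype in the same libraries, so no p here is independent of that choice.

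Single neighbours differed by far more. The region 16186 bp from a knockout-only region inside Nhsl1 scored 0.968 ± 0.00563 in Prdm3/16KO and 0.390 ± 0.0581 in Control libraries (SD, n = 5 and 6, limma adjusted p = 5.25e-09). The neighbour near Cdh11, a mesenchymal cadherin, rose to 0.882 ± 0.0232, against 0.312 ± 0.0471 in Control libraries (limma adjusted p = 1.16e-08). Neighbours at Gm14461, Ccdc171 and Bach2, a repressor of lymphocyte differentiation, rose by 0.391, 0.615 and 0.427 (limma adjusted p of 1.01e-07 or less). In the other direction, a neighbour near Stim2, a calcium sensor of the endoplasmic reticulum, fell to 0.392 ± 0.0833, against 0.911 ± 0.0377 in Control libraries (limma adjusted p = 6.35e-08). It lay 10652 bp from a knockout-only region. Neighbours at Arrdc3, Mbnl2, 1700129C05Rik and Ppfibp2 had score differences of -0.393, -0.389, -0.303 and -0.237 (limma adjusted p of 3.81e-08 or less). Gains and losses of rank were thus both found beside sites that only Prdm3/16KO libraries had.

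Gene ends open in all 11 were called lower more often at genes with a knockout-only region than at all genes, and higher about as often. These shares were not tested. Of 1170 such regions, 114 (9.74%) were higher and 146 (12.5%) lower, against 9.10% and 8.93% of all 10439 at gene ends. At genes with 3 or more knockout-only regions, 6 of 81 (7.41%) were higher and 12 (14.8%) lower. The median score difference, Prdm3/16KO minus Control, was 0.000248 at the 1170 gene ends and 0.00268 at all gene ends, so a gene with knockout-only regions did not as a rule have a higher rank at its own ends.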

How the data were processed

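ATAC-seq peak lists of 5 Prdm3/16KO and 6 Control libraries were used, 1 per library, grouped by the genotype in the labels. The authors deposited them in narrowPeak layout, and the submitters' processing notes list MACS2, DiffBind 3, deepTools and mm10 with no roles. The sources used here name no aligner, option or filter, and read depth is unknown. The deposited score was not used. The deposited fold enrichment (a ratio) and the −log10 p and −log10 q were taken from the layout as made by the authors within each library. They depend on depth, and those given per library are descriptions that were not tested.

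Lists were cut to 72935 rows by −log10 p (rank scores come from this order), restricted to chromosomes 1 to 19 and merged. Rows that share an interval with several summits count as rows of the list. Genes came from RefSeq tables of GRCm38.p6 (20665 protein-coding genes on these chromosomes). Regions found in 3 or more libraries had their rank scores compared with limma 3.58.1 (trend and robust) in R 4.3.3, with genotype as the only term and Benjamini-Hochberg adjustment over all of them. The fit and the merging were tested on simulated data. The rest was done in Python 3.11.15 with pandas 2.3.3, numpy 2.4.6, matplotlib 3.10.9 and scipy 1.17.1.

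The members, gene lists, motifs and tests were chosen with earlier results of these data known. Named were the 10 strongest regions, the 10 genes with most, the 5 largest clusters, the 5 strongest at gene ends, up to 4 genes per list, the targeted genes with Nkx2-1 and Shh, the 3 weakest and the 5 neighbours with the smallest p in each direction. Of these, 1 cluster and 1 gene are not reported here. Printed promoters, the farthest regions and those at the borders of the rule were added after values were seen. Alternatives covered list length, ranking, repeated intervals, merging, chromosome order, distances, the fit, a replicate block and leaving out each library.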

Additional observations from a re-analysis of the deposited data

Results flagged for a closer look

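Prdm3/16KO replicate 5 stood apart from the other 4 knockout libraries in 5 of the 31 groups of values examined, each time by Dixon's criterion at 95%, which marks about 1 group in 20 by chance. Its list had the fewest peaks, 72935, and was the one used without a cut. The −log10 p of its last peak used was 2.001, the lowest of the 5 libraries. Its median −log10 p at knockout-only regions was 42.68, also the lowest, and 26.29% of these regions had more than 1 summit, the highest share. When it was left out of the choice, 81.42% of the regions had a peak in it, against 92.0% to 93.9% for the other 4. All 5 values belong to 1 library and are not independent of each other. The choice made without it gave 3611 regions, and among the other 4 libraries the mean share at regions chosen without the library in question was then 87.7 ± 0.982% (SD, n = 4).

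The X chromosome was outside the rule. By the same criteria, 76 of its 2271 merged regions (3.35%) had a peak in every Prdm3/16KO and no Control library, and 52 (2.29%) the other way round, with 766 open in all 11. The median score of the 76 in Prdm3/16KO libraries was 0.489.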

How the results depend on the processing

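The number of knockout-only regions was 2507 to 3611 under all alternatives, and 2968 to 3611 with each library left out in turn. Which regions qualified depended most on list length: 1139 of the 2933 (38.8%) overlapped a region chosen from lists of 36468 peaks, and 2507 (85.5%) one chosen from the lists as deposited. The held-out presence in Prdm3/16KO libraries stayed between 87.7% and 94.0% on average.

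The share within 1 kb of a gene end was 3.594% with lists of 36468 peaks, 3.479% with 1 row per interval and, with a distance of 3 kb, 6.614%. The share in clusters of 3 or more was 4.388% with the lists as deposited, 4.386% at a −log10 q of at least 5, 4.367% ranked by fold enrichment, 6.818% with 1 row per interval and 8.009% with windows of 400 bp on summits. It was 1.943% with a gap of 25 kb and 11.49% with 100 kb, and 5.29% to 6.425% with each library left out. With lists of 36468 peaks, 236 of 1497 neighbours (15.8%) were higher and 338 (22.6%) lower. All regions open in all 11 then had 13.4% and 19.2%. Higher neighbours numbered 245 both with the lists as deposited (12.7%, background 9.05%) and at the q limit (12.7%, background 9.12%). Within 10 kb, 170 of 986 (17.2%) were higher and 291 (29.5%) lower. Within 100 kb it was 1388 (18.4%) and 1701 (22.5%) of 7561. The background at both distances was 15.6% higher and 20.7% lower.

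The mean score difference of the neighbours changed sign with peaks ranked by fold enrichment (-0.02141) and within 10 kb (-0.009784), both with the smallest exact permutation p possible, 0.00216, and with 1 row per interval (-0.0008153) and without Prdm3/16KO replicate 4. In the positive direction it passed the exact permutation test within 100 kb (0.003443) and without Prdm3/16KO replicate 1 or 5 or Control replicate 3, 5 or 6. The range with each library left out was -0.0004733 to 0.005722. Beside the distances, which change the regions counted, the cause was not tested.

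The labels do not say whether the replicate numbers pair the samples. The correlations of deviations between same-numbered libraries were -0.0172 to 0.0579, and such low values cannot settle it. With the replicate number as a block, 396 neighbours were higher and 512 lower, and the mean difference was 0.001892. All 10 named neighbours kept their direction and call under every alternative that gave a value. Unknown depth limits the comparison of weak peaks, and the rank score says nothing of absolute accessibility.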

Other observations

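Some genes carried both kinds of exclusive region. A knockout-only and a control-only region were both present at 392 genes. That is 21.6% of the 1817 genes with a knockout-only region and 24.8% of the 1580 genes with a control-only region. Of all 16082 genes with any region, 11.3% had a knockout-only region. Genes with a knockout-only region had a median of 9 regions, against 3 for all genes, and the shares were not adjusted for this or tested. MicroRNA genes were rarely close. A hairpin lay within 1 kb of 4 knockout-only regions, those of Mir3092, Mir6941, Mir5118 and Mir6985 at 299, 936, 178 and 441 bp, and none was overlapped. The mean scores of these regions were 0.274, 0.453, 0.315 and 0.587. Among non-coding promoters, the window of the predicted gene Gm36136 lay under the strongest knockout-only region, with a mean score of 0.932 ± 0.0167 (SD, n = 5).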
